A study of Mus musculus with 12 samples.

Results

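Solute carriers are membrane proteins that move sugars, amino acids, vitamins, metals, nucleotides, lipids and inorganic ions across the plasma membrane and the membranes of organelles. The genes described here are those whose mouse symbol is Slc followed by a number and whose counts summed to 600 or more over the 12 libraries. Of the 55421 genes counted, 379 carried such a symbol and 192 reached the sum, and 19 of these were left out by name, which left 173 genes. By what they carry, 168 of them fell into 12 classes, and the other 5 carry the prefix without being transporters (Slc9a3r1, Slc9a3r2, Slc4a1ap, Slc7a6os and the pseudogene Slc2a4rg-ps). The genes were thus chosen by a measured value, the count sum, which favours genes that are abundant in at least 1 group, so the levels of the genes near it are a description. The last genes inside were Slc25a27 with 605 counts, Slc39a8 with 615 and Slc27a3 with 694, and the first outside were Slc12a8 with 547, Slc9b2 with 442 and Slc46a3 with 435.

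Solute carriers work by facilitated diffusion or by coupling the substrate to a gradient of sodium, protons or another solute, and the sodium pump maintains the sodium gradient that many of them use. The SLC25 family is built on a repeated fold of its own and sits mostly in the inner mitochondrial membrane, where it exchanges nucleotides, phosphate, metabolites and cofactors between cytosol and matrix. Macrophages are known for carriers of the lysosome and the plasma membrane that handle amino acids, peptides and metals, and epithelial cells for polarised ion and nutrient transport.

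ID8 is a mouse cancer line from ovarian surface epithelium (C57BL6J wildtype, female), and PMJ2R is a mouse peritoneal macrophage line (C57BL6J, female) that carries the v-raf and v-myc oncogenes, so each line is a single immortal culture and not a primary tissue. Both lines were sequenced as control and after 6 h with 5 nM rebastinib, an inhibitor of the kinase TIE2, with 3 libraries in each of the 4 groups. The labels do not say whether the libraries of a group came from separate cultures, and p-values therefore speak of the variation among these 12 libraries, part or all of which may be technical. The question was how rebastinib changed transcripts in the tumour line and in the macrophage line.

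Levels are given as CPM, counts scaled to a common library size. Marker levels in this paragraph are scaled to library totals, and later CPM levels to the TMM scale described in the next paragraph. Library totals ran from 19025504 to 27070556 counts. All 10 macrophage markers examined stood at 1 CPM or more in PMJ2R control cells and none of 10 ovarian markers did, while ID8 control cells had all 10 ovarian and 3 macrophage markers at that level, so the labelled cell types were met. The summed level of the macrophage markers in ID8 ran from 16.6 to 17.97 CPM in control and from 28.8 to 32.3 with rebastinib. Csf1r, Cd68 and Cd14 were at 1 CPM or more in both ID8 groups, and Adgre1, Spi1, Itgam and Lyz2 were at 0 in both. The summed level of the ovarian markers in ID8 ran from 4427 to 4673 CPM in control and from 2902 to 3024 with rebastinib. Being per total count, the marker sums of both kinds carry the shift between scales given in the next paragraph. Tek, the gene for TIE2, was at 0 in both ID8 groups and under 1 CPM in both PMJ2R groups. Whether the changes described here came through TIE2 was not tested. The share of counts in genes that overlap ribosomal RNA was 0.211% in ID8 control and 1.23% with rebastinib; for PMJ2R it was 0.128% and 5.82%. Mitochondrially encoded transcripts had shares of 3.02% and 4.94% (ID8) and of 3.76% and 5.64% (PMJ2R). The shares of both RNA classes moved with the treatment in both lines, and their part in the results was not tested.

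The solute carrier genes took 0.987% ± 0.0082 of all counts in ID8 control and 0.818% ± 0.027 with rebastinib, and 0.927% ± 0.014 and 0.659% ± 0.0014 in PMJ2R (SD, n = 3). On the TMM scale used for all tests, which sets the bulk of genes level between libraries, their summed level was instead 8339 ± 92.8 and 9302 ± 126 CPM in ID8, and 7975 ± 49.9 and 8003 ± 35.5 CPM in PMJ2R. The difference between these scales is a common shift: with library totals in place of TMM factors, the median log2 fold change of all tested genes moved by -0.43 in ID8 and by -0.56 in PMJ2R. Changes below are log2 fold changes on the TMM scale, relative to the bulk of genes and with ID8 first in a pair unless the sentence says otherwise, and a rise smaller than this shift has the opposite sign per total count. In bulk libraries, fewer cells with a transcript and less of it per cell cannot be told apart.

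In ID8, 165 of the 173 genes passed the filter on low counts, and 61 of them were higher and 73 lower with rebastinib at an adjusted p under 0.05 (edgeR quasi-likelihood test, Benjamini-Hochberg adjustment over all genes). Over all 14829 tested genes 80.4% were called, 38.4% higher and 42.0% lower, so the 81.2% of solute carrier genes called in ID8 lay near the background. In PMJ2R 160 passed the filter, with 48 higher and 88 lower, against a background of 83.7% called, 40.1% higher and 43.6% lower. Changes of at least 2-fold were counted for 14 higher and 37 lower genes in ID8 (background 15.6% and 24.4%), and for 12 higher and 54 lower in PMJ2R (background 15.6% and 25.7%). The median log2 fold change was -0.12 in ID8 and -0.30 in PMJ2R, beside -0.07 and -0.05 over all tested genes. Without ID8 rebastinib replicate 2 the ID8 median was -0.067. With library totals the splits became 26 higher and 103 lower in ID8, and 24 and 123 in PMJ2R; with trends of transcript length and GC content removed they became 84 and 52, and 73 and 74. The background shares above are those of the TMM scale and do not apply to the splits in these other settings. Library values of the treated and control groups did not overlap for 86.1% of the tested genes in ID8 (82.2% of all genes) and 87.5% in PMJ2R (84.3% of all genes).

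The carriers of lipids, choline and organic ions and those of nucleosides had the lowest class medians in ID8, -1.12 over 17 genes and -1.32 over 4 genes. Both lines tested 152 of the genes. Of these 34 were higher in both lines (22.4%, beside 29.9% of the 12398 genes tested in both) and 54 were lower in both (35.5%, beside 30.2%). All 54 remained lower in both with library totals and 39 did with length and GC trends removed, whereas 10 of the 34 remained higher in both with library totals: Slc15a4, Slc19a2, Slc23a2, Slc25a3, Slc25a5, Slc25a33, Slc25a39, Slc25a40, Slc35a1 and Slc6a20b. Each line had its own control libraries. The log2 fold changes of the 2 lines had a Pearson r of 0.74 across the 152 genes, and of 0.70 across all 12398 genes, which are not independent replicates.

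**Figure D1:**
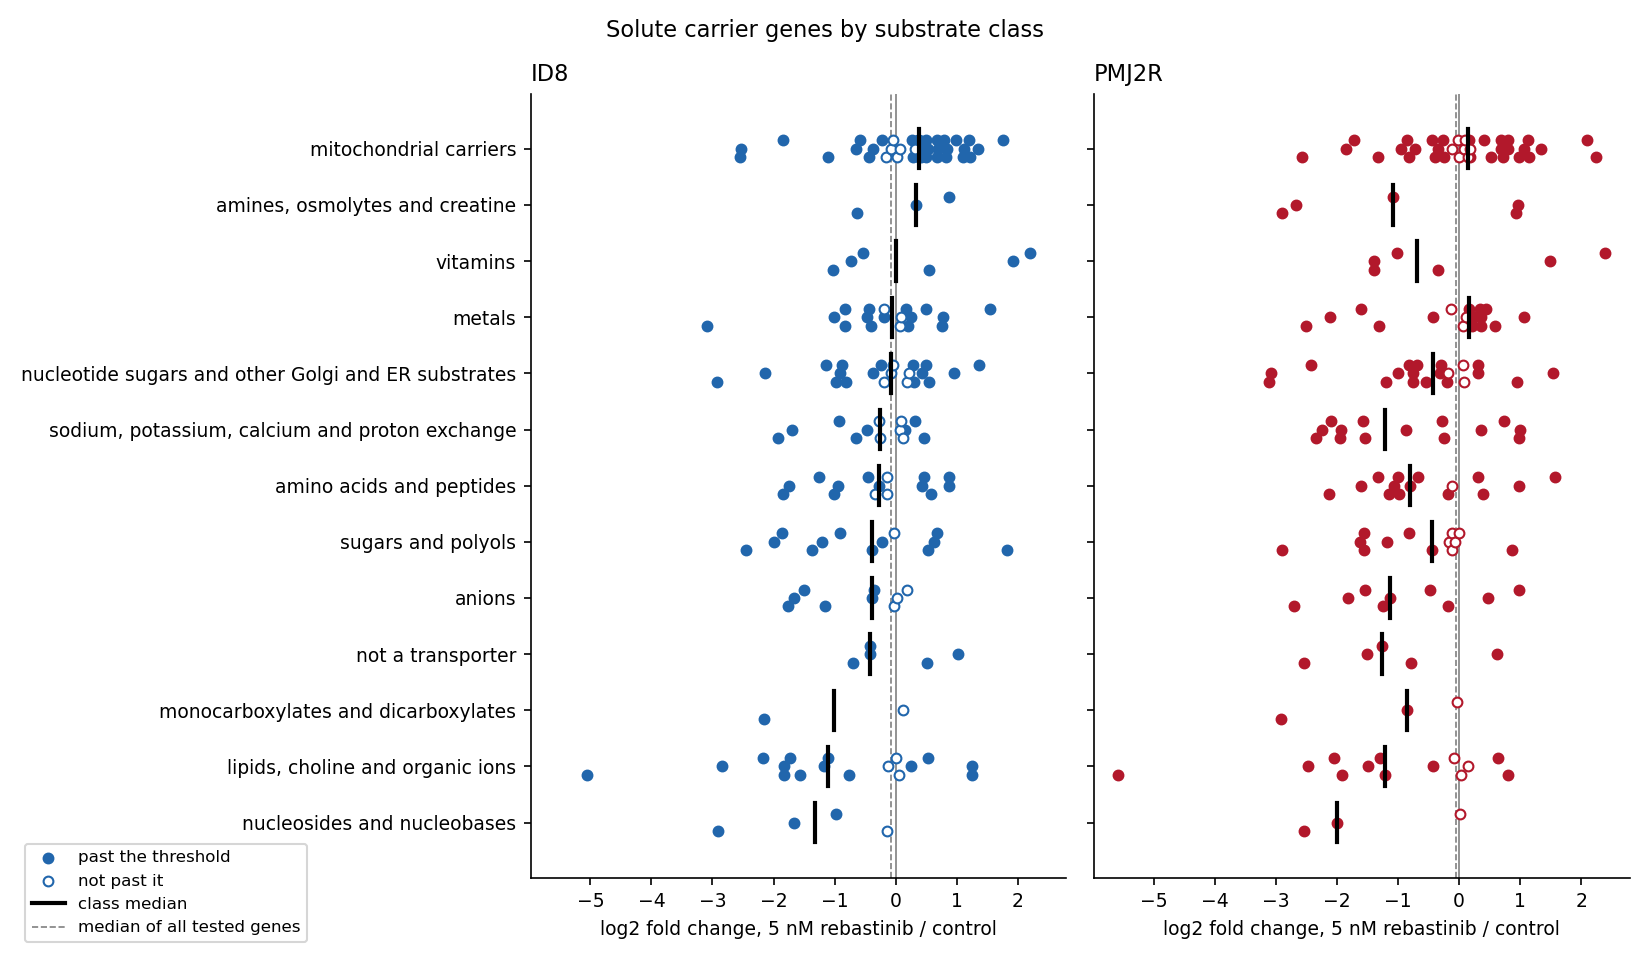
Log2 fold change of each tested solute carrier gene with rebastinib against control in ID8 (left, 165 genes) and PMJ2R (right, 160 genes), by substrate class; filled points passed the adjusted p of 0.05, black bars are class medians and the dashed line is the median of all tested genes. In ID8 the mitochondrial carriers have the highest class median (0.39) and the nucleoside class the lowest; in PMJ2R the medians of the metal and mitochondrial carriers are above 0 (0.17 and 0.15) and the others below it.

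The vitamin carriers held the largest rises shared by the 2 lines, next to members that fell. Slc19a2, the thiamine transporter THTR1 (chr1:164249046-164265385, plus strand, GRCm38), was at 27.96, 30.3 and 28.9 CPM in the ID8 control libraries and 101, 113 and 116 in ID8 with rebastinib. Slc19a2 in PMJ2R stood at 48.3, 49.5 and 46.9 CPM in control and 247, 243 and 241 with rebastinib. Every treated library lay above every control library of its line, with no overlap in either. The rise was larger in PMJ2R (log2 fold change 2.40, SE 0.05, adjusted p = 4.79e-17) than in ID8 (log2 fold change 1.93, SE 0.079, adjusted p = 5.46e-11), and the interaction test of that difference gave log2 fold change 0.41, SE 0.091, adjusted p = 0.000508 (edgeR).

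Slc23a2, the sodium-coupled ascorbate transporter SVCT2 (chr2:132052496-132145108, minus strand), was at 25.6, 27.2 and 24.8 CPM in the ID8 control libraries and 117, 114 and 124 in ID8 with rebastinib. Slc23a2 in PMJ2R stood at 41.7, 39.7 and 40.0 CPM in control and 110.5, 111 and 106 with rebastinib. Groups did not overlap in either line. Here the order was the reverse, with a larger rise in ID8 (log2 fold change 2.20, SE 0.075, adjusted p = 1.29e-11) than in PMJ2R (log2 fold change 1.49, SE 0.053, adjusted p = 2.39e-14), and a difference of -0.77 (SE 0.091, edgeR adjusted p = 1.65e-07). Both genes remained higher in both lines with library totals, at 1.50 and 1.84 for Slc19a2 and 1.77 and 0.93 for Slc23a2. Together the 6 vitamin genes summed to 137 ± 2.57 CPM in ID8 control and 289 ± 8.47 with rebastinib, and to 288 ± 6.39 and 463 ± 8.58 in PMJ2R (SD, n = 3).

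The 250 bases before the RefSeq start (GRCm38.p6) are shown for these genes because they had the largest rises called in both lines. They lie at chr1:164248796-164249045 (plus strand) and chr2:132145109-132145358 (minus strand), written 5′ to 3′ in the direction of transcription. Capitals mark matches, on either strand, to the 7 short motifs described with the other promoters near the end.
Slc19a2: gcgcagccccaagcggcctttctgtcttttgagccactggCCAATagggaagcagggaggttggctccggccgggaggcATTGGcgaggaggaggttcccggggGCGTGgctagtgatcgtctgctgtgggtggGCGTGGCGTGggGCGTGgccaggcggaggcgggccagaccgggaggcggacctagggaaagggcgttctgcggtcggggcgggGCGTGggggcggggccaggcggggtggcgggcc
Slc23a2: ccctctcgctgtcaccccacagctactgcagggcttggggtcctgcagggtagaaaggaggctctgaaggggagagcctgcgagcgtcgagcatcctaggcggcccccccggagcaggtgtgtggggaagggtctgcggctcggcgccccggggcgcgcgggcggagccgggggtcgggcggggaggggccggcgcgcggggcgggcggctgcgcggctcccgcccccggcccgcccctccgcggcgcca

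The Slc19a2 window held 5 matches to GCGTG, 2 of them side by side, and 2 to CCAAT, while the Slc23a2 window held no match to any of the motifs.

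Of the other 4 vitamin genes, 3 fell in both lines. Slc19a1, the reduced folate carrier, changed by -1.03 (SE 0.12) on the log2 scale in ID8 and -0.35 (SE 0.056) in PMJ2R, Slc46a1, the proton-coupled folate transporter, by -0.54 (SE 0.10) and -1.01 (SE 0.15), and the riboflavin transporter Slc52a2 by -0.73 (SE 0.10) and -1.40 (SE 0.074). After removal of length and GC trends the PMJ2R value of Slc19a1 was 0.17, and the ID8 value of Slc52a2 was -0.12 and not called. The last, Slc5a6 (the sodium-dependent carrier of biotin and pantothenate, chr5:31036036-31048924, minus strand), moved in opposite directions. It was at 12.9, 12.8 and 13.5 CPM in ID8 control and 18.8, 18.6 and 19.7 with rebastinib, but at 53.7, 51.2 and 50.7 in control and 19.4, 16.5 and 21.0 with rebastinib in PMJ2R. Treated libraries lay above control in ID8 and below it in PMJ2R, and the interaction was log2 fold change -1.996, SE 0.12, adjusted p = 4.66e-12 (edgeR). With library totals its ID8 value was 0.12 and not called. Atraid shares 9.92% of its exon bases on the other strand.

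Over all tested genes 38.4% were called higher and 42.0% lower in ID8, and 40.1% and 43.6% in PMJ2R. Those shares are the background for the class counts on the TMM scale here and below. They do not apply to counts with library totals or with trends removed, for which shares over all genes are not given. Among the SLC25 carriers and the mitochondrial sodium-calcium exchanger Slc8b1, 24 of 39 tested genes rose and 9 fell in ID8, and 17 of 37 rose and 13 fell in PMJ2R, with medians of 0.39 and 0.15. Under library totals the counts became 13 and 14 in ID8, and 9 and 24 in PMJ2R, so the direction of the class as a whole depends on the scale; with length and GC trends removed they were 29 and 7, and 24 and 9. Relative to the bulk of genes the summed level of the class was 2751 ± 86.95 CPM in ID8 control and 4163 ± 178 with rebastinib, and 2815 ± 55.4 and 3826 ± 33.4 in PMJ2R (SD, n = 3). As a share of all counts it was 0.326% and 0.366% in ID8, and 0.327% and 0.315% in PMJ2R. Slc25a17, a peroxisomal member, and Slc25a46, of the outer membrane, are counted with the family.

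Slc25a5 and Slc25a3 were the abundant members. Slc25a5, the adenine nucleotide translocator ANT2, was at 546, 551 and 597 CPM in ID8 control and 1022, 1010.2 and 959 with rebastinib, and at 858, 816 and 739 in control and 1278, 1271 and 1253 with rebastinib in PMJ2R. The groups did not overlap, and the log2 fold changes were 0.83 (SE 0.073) and 0.72 (SE 0.056). Slc25a3, the phosphate carrier of the inner membrane (chr10:91116574-91124059, minus strand), was at 412, 403 and 421 CPM in the ID8 control libraries and 949.8, 876 and 846 in ID8 with rebastinib. Slc25a3 in PMJ2R stood at 318, 309.8 and 298 CPM in control and 646, 652 and 642 with rebastinib. Treated libraries lay above control in both lines, with log2 fold changes of 1.12 (SE 0.072) and 1.13 (SE 0.046) and a difference of -0.044 (SE 0.083) that did not pass the test (edgeR adjusted p = 0.71). Slc25a4, the adenine nucleotide translocator ANT1 (named after its values were seen), rose by 0.67 (SE 0.075) and 0.16 (SE 0.045); the PMJ2R value is -0.40 with library totals.

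Slc25a39 and Slc25a40, both linked to glutathione import into mitochondria, rose in both lines. Slc25a39 was at 202, 197 and 216 CPM in ID8 control and 481, 395 and 346 with rebastinib, and at 155, 159 and 164 in control and 329.7, 328 and 302 with rebastinib in PMJ2R, which gave 0.99 (SE 0.10) and 1.07 (SE 0.048). Slc25a40, at a lower level, was at 11.97, 12.9 and 11.1 CPM and 21.4, 29.2 and 26.4 in ID8, and at 11.7, 12.03 and 11.2 in control and 43.6, 51.2 and 48.4 with rebastinib in PMJ2R. Its rise in PMJ2R (2.10, SE 0.078) exceeded that in ID8 (1.10, SE 0.12), with a difference of 0.94 (edgeR adjusted p = 7.36e-06), whereas for Slc25a39 the difference was 0.017 (SE 0.12, adjusted p = 0.963).

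Slc25a33, the pyrimidine nucleotide carrier (chr4:149744036-149774277, minus strand), was at 31.1, 32.3 and 34.3 CPM in the ID8 control libraries and 62.5, 58.8 and 53.1 in ID8 with rebastinib. Slc25a33 in PMJ2R stood at 12.1, 12.2 and 10.8 CPM in control and 54.1, 52.9 and 52.4 with rebastinib. Control PMJ2R cells held less of it than control ID8 cells, and treated cells of the lines lay closer. The changes were log2 fold change 0.84, SE 0.083, adjusted p = 3.3e-07 in ID8 and log2 fold change 2.24, SE 0.074, adjusted p = 8.52e-15 in PMJ2R, and the difference was 1.35 (edgeR adjusted p = 5.87e-10). The antisense gene Gm13068 shares 14.9% of its exon bases. The calcium-regulated ATP-magnesium carrier Slc25a25 (0.37, SE 0.10 and 1.34, SE 0.06) and Slc25a44, linked to branched-chain amino acids (0.49, SE 0.08 and 1.14, SE 0.054), also rose more in PMJ2R, though with library totals the ID8 values, -0.063 and 0.055, were not called. The S-adenosylmethionine carrier Slc25a26 rose more in ID8 (1.20, SE 0.11 against 0.68, SE 0.11; difference -0.57, edgeR adjusted p = 0.00254), and its PMJ2R value was 0.13 and not called with library totals.

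A second set of mitochondrial carriers rose in ID8 and fell in PMJ2R. Slc25a42, the coenzyme A carrier (chr8:70184340-70212305, minus strand), was at 3.99, 4.04 and 3.35 CPM in the ID8 control libraries and 13.02, 12.1 and 13.1 in ID8 with rebastinib. Slc25a42 in PMJ2R stood at 12.9, 13.4 and 14.8 CPM in control and 11.4, 11.4 and 10.2 with rebastinib. The ID8 groups were far apart and the PMJ2R groups close, though without overlap: log2 fold change 1.75, SE 0.13, adjusted p = 1.15e-08 in ID8, log2 fold change -0.26, SE 0.10, adjusted p = 0.02 in PMJ2R, and a difference of -2.07 (edgeR adjusted p = 1.61e-10). After removal of length and GC trends the PMJ2R value was 0.37. Slc25a28, mitoferrin-2 for iron, went from 56.3, 51.7 and 60.2 CPM to 94.5, 88.6 and 88.7 in ID8, and from 52.03, 57.4 and 57.8 to 25.9, 27.6 and 29.7 in PMJ2R (0.70, SE 0.076 and -0.95, SE 0.068). The dicarboxylate carrier Slc25a10 changed by 0.28 (SE 0.085) and -1.33 (SE 0.081); its ID8 rise becomes -0.16 with library totals. Slc25a14, Slc25a35 and Slc25a38 (glycine), named after their values were seen, showed the same pair of calls, and of these 6 genes Slc25a28, Slc25a38 and Slc25a42 kept both calls with library totals. Rangrf shares 31.3% of the exon bases of Slc25a35. Slc8b1 rose in ID8 (log2 fold change 1.35, SE 0.11, adjusted p = 3.93e-08), while in PMJ2R it had 7.901, 7.54 and 6.91 CPM in control and 7.24, 7.63 and 8.85 with rebastinib, which overlap.

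Falls in this class were fewer. Slc25a45 (chr19:5877808-5885878, plus strand) was at 20.4, 18.7 and 21.4 CPM in the ID8 control libraries and 3.38, 3.06 and 3.76 in ID8 with rebastinib. Slc25a45 in PMJ2R stood at 49.7, 48.8 and 50.3 CPM in control and 6.99, 8.35 and 8.53 with rebastinib. Treated libraries lay far below control in both lines, and the changes were -2.55 (SE 0.12) and -2.58 (SE 0.082). Slc25a12, the aspartate-glutamate carrier of the malate-aspartate shuttle, went from 80.2, 79.4 and 78.8 CPM to 25.8, 21.3 and 22.8 in PMJ2R and from 75.5, 72.7 and 77.6 to 50.4, 42.8 and 49.4 in ID8, and its fall was larger in PMJ2R (difference -1.11, edgeR adjusted p = 7.99e-09); with length and GC trends removed the ID8 value was -0.13 and not called. The other carrier of that exchange, Slc25a13, and the oxoglutarate carrier Slc25a11, named after their values were seen, fell in both lines as well, with log2 fold changes of -0.38 (SE 0.07) and -0.73 (SE 0.062) for the first and -0.59 (SE 0.085) and -0.25 (SE 0.064) for the second. The PMJ2R value of Slc25a11 with length and GC trends removed was 0.0083.

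**Figure D2:**
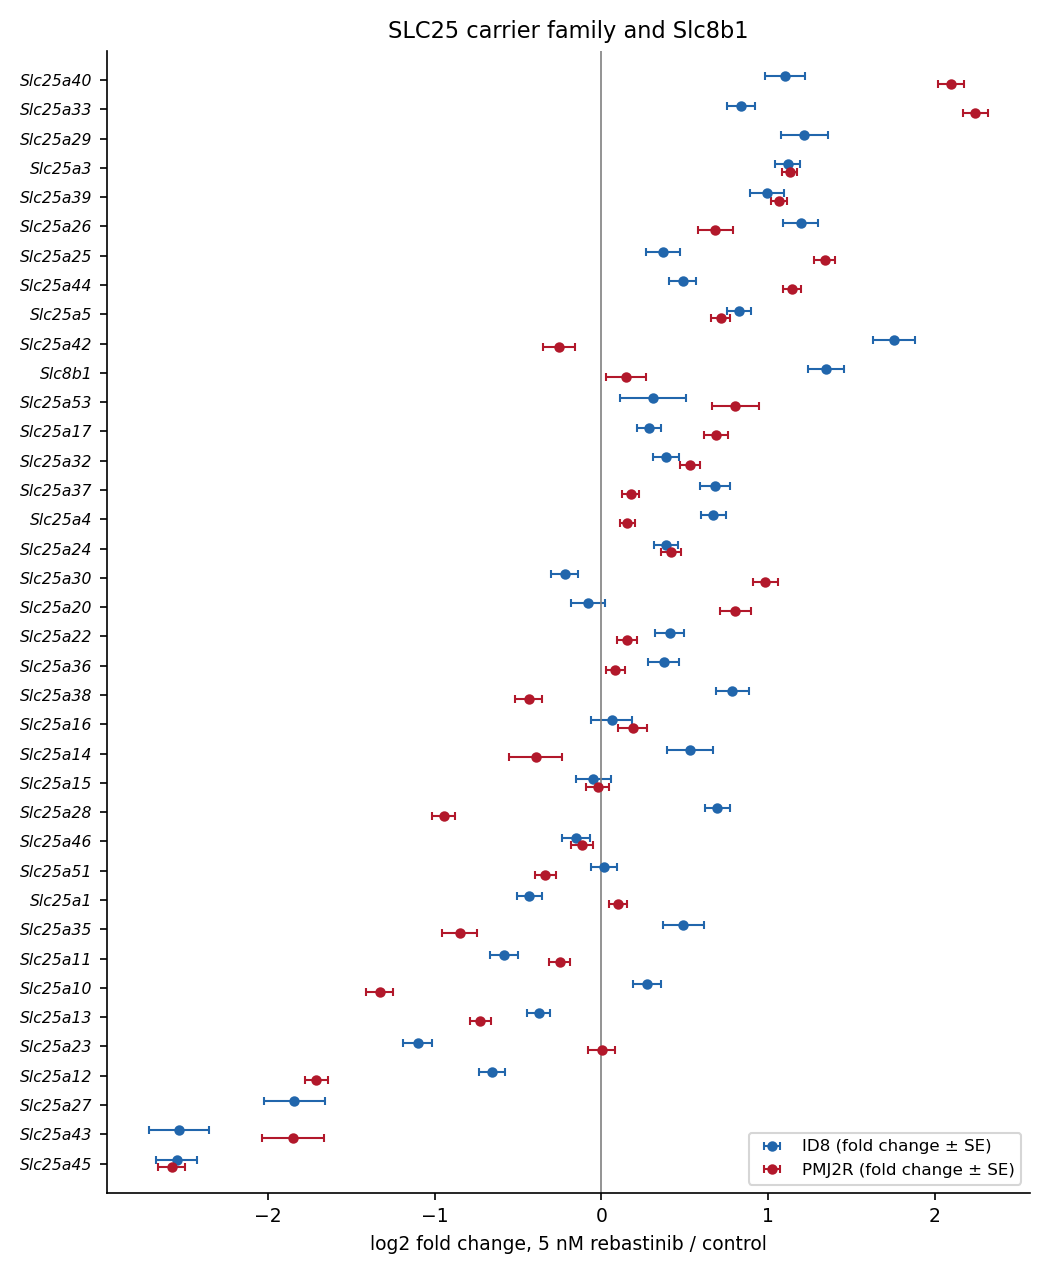
Log2 fold change with its standard error for 38 members of the mitochondrial class in ID8 (blue) and PMJ2R (red), on the TMM scale; genes are ordered by the mean of the values shown, and 2 genes that were not tested in PMJ2R have 1 point. Slc25a40, Slc25a33, Slc25a3 and Slc25a39 lie to the right of 0 in both lines, Slc25a45 and Slc25a43 to the left in both, and Slc25a42, Slc25a28 and Slc25a10 on opposite sides.

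Carriers of lipids, choline and organic ions fell more often than they rose: 4 higher and 10 lower of 17 tested in ID8 (median -1.12, background 38.4% and 42.0%), and 2 higher and 8 lower of 13 in PMJ2R (median -1.21, background 40.1% and 43.6%). Their summed level was 641 ± 10.8 CPM in ID8 control and 600 ± 26.7 with rebastinib, and 358 ± 1.86 and 242 ± 0.16 in PMJ2R (SD, n = 3). Slc27a3, near the count minimum, is a fatty acid transport protein with acyl-CoA synthetase activity (chr3:90385239-90389938, minus strand). It was at 5.24, 6.497 and 6.16 CPM in the ID8 control libraries and 0.277, 0.1201 and 0.131 in ID8 with rebastinib. Slc27a3 in PMJ2R stood at 3.13, 1.74 and 2.17 CPM in control and 0.127, 0 and 0 with rebastinib. Its levels are a description, since it reached the minimum through its control groups: they rest on 479 and 10 counts in the ID8 groups and on 203 and 2 in PMJ2R. In PMJ2R the control level was 55.8 times the treated one, with a 95% counting interval of 15.2 to 463 that covers counting error only.

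Its promoter window at chr3:90389939-90390188 (minus strand) is shown with that of Slc33a1 at chr3:63964734-63964983 (minus strand). Of the genes with a window, these had the largest falls called in both lines, ranked by the line with the smaller change. For Slc27a3 that ranking rests on the low treated counts given above. Letters are as above.
Slc27a3: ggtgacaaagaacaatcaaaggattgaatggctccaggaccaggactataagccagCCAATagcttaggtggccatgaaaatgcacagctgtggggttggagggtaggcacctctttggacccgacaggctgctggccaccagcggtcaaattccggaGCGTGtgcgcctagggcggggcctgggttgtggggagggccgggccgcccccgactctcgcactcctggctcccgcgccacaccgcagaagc
Slc33a1: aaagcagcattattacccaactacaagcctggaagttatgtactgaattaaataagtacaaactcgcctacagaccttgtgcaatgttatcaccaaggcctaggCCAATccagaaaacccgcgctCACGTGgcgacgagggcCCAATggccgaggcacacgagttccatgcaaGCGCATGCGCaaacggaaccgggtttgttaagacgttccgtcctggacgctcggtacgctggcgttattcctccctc

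The Slc27a3 window held 1 match to CCAAT and 1 to GCGTG. The Slc33a1 window held 2 matches to CCAAT, 1 to CACGTG and 1 to the NRF1 site. The NRF1 site was in 1 of the 134 solute carrier windows (0.75%, beside 0.78% of all genes).

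Slc27a6, another fatty acid transport protein, was found in ID8 only, at 40.4, 40.04 and 41.8 CPM in control and 5.595, 6.25 and 5.12 with rebastinib (log2 fold change -2.85, SE 0.10, adjusted p = 1.74e-11); PMJ2R had 0 counts in all 6 libraries, which allows up to 0.0343 CPM in its control group. Slc27a4 fell in both lines (-1.17, SE 0.095 and -1.50, SE 0.12), and Slc27a1 rose in ID8 (1.24, SE 0.13) and stood at 25.4 ± 3.32 and 22.9 ± 1.83 CPM in PMJ2R (SD, n = 3). Both were named after their values were seen, to complete the fatty acid transport proteins. Slc17a9, which loads nucleotides into vesicles, fell in PMJ2R from 29.6, 28.6 and 32.7 CPM to 5.08, 5.17 and 5.41 (log2 fold change -2.47, SE 0.095, adjusted p = 5.82e-14), and in ID8 from a level near 1 CPM (-2.18, SE 0.40). Slc10a7, named for the bile acid carrier family, fell in both lines: 28.6, 27.7 and 27.4 CPM to 7.202, 7.21 and 8.79 in ID8 (-1.84, SE 0.10) and 29.4, 32.3 and 29.97 to 7.62, 7.27 and 8.34 in PMJ2R (-1.92, SE 0.09).

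The choline transporter-like genes were the most abundant of the class and did not move together. Slc44a1 was at 211, 215 and 198 CPM in ID8 control and 199, 216 and 231 with rebastinib, which overlap, and rose in PMJ2R from 72.4, 76.2 and 66.4 to 122, 122 and 117 (0.81, SE 0.059). Slc44a2 rose slightly in ID8, from 154, 148 and 151 CPM to 175, 181 and 182 (0.25, SE 0.063, and -0.18 with library totals), and fell in PMJ2R from 119, 119 and 121 to 48.7, 44.3 and 46.6 (-1.30, SE 0.053). The interaction tests gave 0.69 (SE 0.094) for Slc44a1 and -1.61 (SE 0.082) for Slc44a2, with edgeR adjusted p = 1.24e-06 and 1.87e-13. Slc44a3, at 22.98, 25.8 and 27.6 CPM in ID8 control, fell to 7.92, 9.37 and 8.397 (-1.57, SE 0.11) and did not pass the PMJ2R filter.

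Carriers of nucleotide sugars and of other substrates of the Golgi and endoplasmic reticulum split in ID8 (7 higher and 9 lower of 21, background 38.4% and 42.0%) and mostly fell in PMJ2R (4 higher and 13 lower of 20, background 40.1% and 43.6%), with medians of -0.07 and -0.42. Slc33a1, which brings acetyl-CoA into the endoplasmic reticulum (chr3:63933507-63964768, minus strand), was at 25.2, 26.03 and 26.5 CPM in the ID8 control libraries and 3.32, 3.36 and 3.46 in ID8 with rebastinib. Slc33a1 in PMJ2R stood at 28.2, 26.8 and 24.1 CPM in control and 3.49, 2.703 and 2.55 with rebastinib. The difference between control levels of the lines was -0.084 (SE 0.073) and did not pass the test (edgeR adjusted p = 0.292). Both lines fell, with log2 fold changes of -2.93 (SE 0.11) and -3.12 (SE 0.13) and a difference of -0.24 (SE 0.18, edgeR adjusted p = 0.283). The antisense gene Gm26850 shares 32.02% of its exon bases, and the strand setting of the counting is not given in the sources used here. Slc35a1, the CMP-sialic acid carrier, rose in both lines, from 20.8, 24.1 and 23.2 CPM to 48.1, 40.8 and 41.9 in ID8 and from 14.5, 13.2 and 14.8 to 36.5, 41.4 and 40.2 in PMJ2R (0.95, SE 0.092 and 1.54, SE 0.076), as did the UDP-galactose carrier Slc35a2 (0.55, SE 0.094, or 0.11 and not called with library totals, and 0.95, SE 0.072). Slc35a3 for UDP-N-acetylglucosamine fell in both (-0.82, SE 0.11 and -0.29, SE 0.066). Slc35a2 and Slc35a3 were named after their values were seen, beside Slc35a1.

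Slc35e4 rose in ID8 from 38.3, 35.02 and 39.9 CPM to 107, 89.3 and 93.1 (log2 fold change 1.36, SE 0.085, adjusted p = 3.16e-09), while PMJ2R had 33.5, 27.96 and 29.97 in control and 30.8, 30.5 and 30.7 with rebastinib; the difference was -1.34 (edgeR adjusted p = 1.4e-09). Slc35b1, an ATP/ADP exchanger of the endoplasmic reticulum, was the most abundant member per exon length. It changed by 0.49 (SE 0.08) in ID8 and 0.32 (SE 0.069) in PMJ2R. With library totals its PMJ2R value turned to -0.24, and its ID8 value was 0.055 and not called. Without an expression filter its PMJ2R value was 0.11 and not called (edgeR adjusted p = 0.192). Slc35f6 (named after its values were seen) fell from 19.2, 19.9 and 17.6 CPM to 1.72, 2.402 and 2.29 in PMJ2R and from 31.6, 32.4 and 31.3 to 14.5, 14.2 and 14.2 in ID8, with a difference of -1.99 (SE 0.16).

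No nucleoside carrier was called higher on the TMM scale. Slc29a1, the equilibrative nucleoside transporter ENT1 and the most abundant of them per length, was at 477 ± 31.3 CPM in ID8 control and 433 ± 23.2 with rebastinib, and at 158 ± 7.33 and 154 ± 8.19 in PMJ2R (SD, n = 3); its changes of -0.13 (SE 0.074) and 0.021 (SE 0.052) did not pass the test, and the PMJ2R call depended on the setting. With library totals both values were called lower (-0.57 and -0.54), and with length and GC trends removed the PMJ2R value was 0.44 and called higher. Slc29a2, ENT2 (chr19:5023860-5031972, plus strand), was at 7.07, 7.14 and 7.03 CPM in the ID8 control libraries and 2.33, 1.802 and 2.49 in ID8 with rebastinib. Slc29a2 in PMJ2R stood at 49.99, 50.9 and 54.02 CPM in control and 8.705, 8.53 and 8.46 with rebastinib. Its falls of -1.66 (SE 0.16) and -2.53 (SE 0.075) left no overlap, and the PMJ2R fall was the larger (difference -0.93, edgeR adjusted p = 6.56e-05). Slc29a3, the lysosomal ENT3 (chr10:60712072-60752794, minus strand), was at 11.5, 12.2 and 10.7 CPM in the ID8 control libraries and 1.61, 1.201 and 1.71 in ID8 with rebastinib. Slc29a3 in PMJ2R stood at 25.01, 27.4 and 29.9 CPM in control and 6.73, 6.73 and 6.30 with rebastinib. Here the ID8 fall was the larger, with log2 fold changes of -2.91 (SE 0.16) and -1.995 (SE 0.10) (difference 0.85, edgeR adjusted p = 0.000854). Slc43a3, a purine nucleobase transporter, fell in ID8 from 88.4, 87.1 and 90.4 CPM to 42.9, 46.5 and 45.8 (-0.97, SE 0.07) and was not tested in PMJ2R, which had 2 counts in all.

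Metal carriers moved in both directions, with 7 higher and 8 lower of 18 in ID8, and 9 higher and 5 lower of 17 in PMJ2R, where library totals leave 1 higher and 12 lower. The ID8 shares lay near those of all tested genes (38.4% higher and 42.0% lower), and the PMJ2R background was 40.1% and 43.6%. The largest change was that of the magnesium transporter Slc41a1 (chr1:131827493-131848865, plus strand), which was at 27.3, 24.7 and 25.5 CPM in the ID8 control libraries and 2.44, 3.604 and 3.06 in ID8 with rebastinib. Slc41a1 in PMJ2R stood at 25.6, 27.7 and 29.6 CPM in control and 4.13, 4.504 and 5.35 with rebastinib. The difference between control levels of the lines, -0.013 (SE 0.073), did not pass the test (edgeR adjusted p = 0.877). Both lines fell without overlap, ID8 by more: log2 fold change -3.09, SE 0.13, adjusted p = 7.68e-11 and log2 fold change -2.51, SE 0.11, adjusted p = 1.95e-13, with a difference of 0.52 (edgeR adjusted p = 0.0209). Among the zinc importers, Slc39a6 (ZIP6) fell from 178, 184 and 191 CPM to 69.6, 70.9 and 72.99 in PMJ2R and from 43.95, 44.2 and 42.6 to 24.1, 21.7 and 26.99 in ID8 (-1.31, SE 0.048 and -0.83, SE 0.089). Slc39a3 and Slc39a13, named after their values were seen, fell in both lines as well (-0.83, SE 0.14 and -1.60, SE 0.13, -1.02, SE 0.11 and -2.12, SE 0.11).

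Slc39a4 (ZIP4) rose in PMJ2R from 22.7, 20.96 and 24.5 CPM to 32.8, 33.5 and 31.6 (0.59, SE 0.072, 0.029 with library totals), and in ID8 from below 1 CPM (1.55, SE 0.37, on 31 and 65 counts). Slc39a1 (ZIP1), the most abundant zinc importer per length, changed by 0.19 (SE 0.07) and 0.44 (SE 0.057), and both values turned negative with library totals (-0.24 and -0.12). Without ID8 control replicate 2 its ID8 value was 0.16 and not called (edgeR adjusted p = 0.121). Nor was it called without an expression filter (0.17) or at a mean of 5 CPM (0.10), with edgeR adjusted p = 0.080 and 0.167. Over the zinc exporters Slc30a4, Slc30a5, Slc30a6, Slc30a7 and Slc30a9 the log2 fold changes ran from -0.44 to 0.75 in ID8 and from 0.063 to 0.36 in PMJ2R, where with library totals all 5 were below 0. The copper importer Slc31a1 (CTR1), named after its values were seen, rose from 56.8, 52.97 and 52.97 CPM to 106, 109.9 and 108 in PMJ2R and from 60.4, 59.0 and 61.4 to 79.6, 85.6 and 90.1 in ID8 (1.06, SE 0.053 and 0.50, SE 0.072, the latter 0.072 and not called with library totals).

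Of the amino acid and peptide carriers, 5 rose and 7 fell of 15 in ID8 (median -0.27, background 38.4% and 42.0%), and 4 rose and 10 fell of 15 in PMJ2R (median -0.80, background 40.1% and 43.6%). Of the 16 members 8 had a lower and 4 a higher response in PMJ2R by the interaction test (30.6% and 21.8% over all genes). The 16 include Slc7a8, which did not pass the ID8 filter, and Slc7a2, which did not pass that of PMJ2R. For these 2 the test does not compare responses. Slc15a3, a lysosomal carrier of peptides and histidine (chr19:10839727-10859362, plus strand), was at 18.7, 16.5 and 19.02 CPM in the ID8 control libraries and 38.5, 32.3 and 28.3 in ID8 with rebastinib. Slc15a3 in PMJ2R stood at 67.5, 62.0 and 70.8 CPM in control and 21.2, 22.8 and 18.96 with rebastinib. Treated libraries lay above control in ID8 and below it in PMJ2R, with log2 fold change 0.87, SE 0.11, adjusted p = 5.49e-06 and log2 fold change -1.61, SE 0.073, adjusted p = 5.92e-13, and the interaction of -2.53 had an edgeR adjusted p = 8.39e-13. Tmem132a shares 28.1% of its exon bases on the other strand. Its relative Slc15a4 (named after its values were seen) rose in both lines, by 0.87 (SE 0.081) and 0.99 (SE 0.07).

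Slc43a2, a carrier of branched-chain and other large neutral amino acids, was far more abundant in PMJ2R and fell there from 143, 149 and 168 CPM to 62.6, 54.2 and 59.5 (-1.32, SE 0.063); in ID8 it went from 8.17, 6.38 and 7.25 to 10.4, 8.53 and 10.4 (0.44, SE 0.13, 0.0046 with library totals). Slc38a6, also more abundant in PMJ2R control cells, moved the other way in that line. It rose in PMJ2R from 14.9, 14.6 and 15.1 CPM to 44.2, 43.5 and 39.6 (log2 fold change 1.58, SE 0.072, adjusted p = 5.91e-13) and stood at 5.39, 4.797 and 4.08 in control and 3.21, 3.604 and 4.37 with rebastinib in ID8, which overlap; the difference was 1.85 (SE 0.17). Slc38a9, the lysosomal arginine sensor of the mTORC1 pathway, fell in both lines (-1.74, SE 0.14 and -2.12, SE 0.10), and the glutamine carrier Slc38a1, the most abundant of the class in CPM, changed by -0.95 (SE 0.075) in ID8 and -0.18 (SE 0.043) in PMJ2R; with length and GC trends removed the PMJ2R value turned to 0.25. Both were named after their values were seen. Slc38a10, the most abundant per length, rose from 149, 135 and 143 to 206, 213 and 217 CPM in ID8 (0.58, SE 0.067). In PMJ2R it rose by 0.32 (SE 0.048). With library totals its PMJ2R value turned to -0.24, and its ID8 value was 0.15 and not called. Without an expression filter its PMJ2R value was 0.11 and not called (edgeR adjusted p = 0.096).

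Of the sugar and polyol carriers, 4 rose and 8 fell of 13 in ID8 (background 38.4% and 42.0%), and 1 rose and 7 fell of 13 in PMJ2R (background 40.1% and 43.6%). Slc2a3, the glucose transporter GLUT3 (chr6:122727809-122801640, minus strand), was at 21.7, 20.5 and 23.6 CPM in the ID8 control libraries and 3.88, 4.26 and 3.85 in ID8 with rebastinib. Slc2a3 in PMJ2R stood at 28.3, 27.6 and 28.7 CPM in control and 14.2, 15.2 and 16.7 with rebastinib. It fell in both without overlap and by far more in ID8: log2 fold change -2.46, SE 0.12, adjusted p = 2.05e-10 against log2 fold change -0.82, SE 0.079, adjusted p = 2.17e-08, with a difference of 1.58 (edgeR adjusted p = 2.53e-09). Slc2a6, a lysosomal member of the glucose transporter family, fell in PMJ2R from 45.8, 45.6 and 43.9 CPM to 15.3, 14.1 and 14.6 (-1.56, SE 0.072) and held 2 counts in all ID8 control libraries. The single rise in PMJ2R was that of the myo-inositol carrier Slc5a3 (0.87, SE 0.072), which also rose in ID8 (0.62, SE 0.14, or 0.19 and not called with library totals). Slc45a3 rose in ID8 from 7.94, 7.21 and 9.07 CPM to 29.5, 27.8 and 28.5 (log2 fold change 1.83, SE 0.10, adjusted p = 1.18e-09), and its relative Slc45a4 fell in both lines (-1.21, SE 0.11 and -1.62, SE 0.083). Slc5a3 and Slc45a4 were named after their values were seen. Slc50a1, the sugar efflux protein SWEET1 and the most abundant member per length, rose by 0.54 (SE 0.10) in ID8 and stood at 21.7, 21.1 and 22.4 CPM in control and 18.04, 20.5 and 18.8 with rebastinib in PMJ2R. With library totals its ID8 value was 0.10 and not called. Its PMJ2R value was not called on the TMM scale, but was called lower with library totals (-0.68), without a filter (-0.33) and at a mean of 5 CPM (-0.17).

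No anion carrier rose in ID8 (6 lower of 9, background 38.4% higher and 42.0% lower), and 2 rose and 7 fell of 9 in PMJ2R (background 40.1% and 43.6%). The rises were those of Slc20a1 and Slc4a7. Slc20a1, the phosphate transporter PiT1 (chr2:129198764-129211616, plus strand), was at 43.6, 46.05 and 44.1 CPM in the ID8 control libraries and 33.9, 31.7 and 38.7 in ID8 with rebastinib. Slc20a1 in PMJ2R stood at 92.1, 89.1 and 92.1 CPM in control and 177, 167 and 175 with rebastinib. The treated libraries lay below control in ID8 (log2 fold change -0.35, SE 0.086, adjusted p = 0.00177) and above it in PMJ2R (log2 fold change 0.99, SE 0.047, adjusted p = 1.05e-12), and the difference was 1.28 (SE 0.10). With length and GC trends removed its ID8 value was -0.043 and not called. Its relative Slc20a2 (PiT2) fell in both lines (-0.39, SE 0.079 and -1.13, SE 0.069), though its ID8 value turned to 0.061 with length and GC trends removed, and the sodium bicarbonate cotransporter Slc4a7 moved as Slc20a1 did (-1.15, SE 0.11 and 0.48, SE 0.056, the latter -0.081 with library totals). Both were named after their values were seen. The sulphate transporter Slc26a2 fell from 60.4, 67.3 and 68.9 CPM to 19.2, 23.7 and 22.1 in PMJ2R (-1.53, SE 0.076) and stood at 26.1, 25.95 and 24.7 in control and 25.9, 22.6 and 29.2 with rebastinib in ID8. The anion exchanger Slc4a3 (AE3) fell in ID8 from 16.5, 16.2 and 15.2 CPM to 4.76, 4.87 and 4.42 (-1.77, SE 0.11). Slc4a2 (AE2), the most abundant of the class per length, had 182 ± 4.65 and 178 ± 3.902 CPM in ID8, and 89.97 ± 3.84 and 76.3 ± 2.696 in PMJ2R (SD, n = 3), where its fall (-0.18, SE 0.051) turned to 0.48 with length and GC trends removed. Fastk shares 13.7% of its exon bases.

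Exchangers and cotransporters of sodium, potassium, calcium and protons were called lower for 5 of 13 genes in ID8 (3 higher) and for 10 of 14 in PMJ2R (4 higher), with medians of -0.26 and -1.21. The background was 42.0% lower and 38.4% higher in ID8, and 43.6% lower and 40.1% higher in PMJ2R. The Golgi sodium-proton exchanger Slc9a8 fell in both lines, from 31.6, 30.2 and 32.9 CPM to 9.64, 8.95 and 10.5 in ID8 and from 30.8, 28.7 and 30.2 to 9.02, 6.31 and 7.06 in PMJ2R (-1.69, SE 0.10 and -1.94, SE 0.11). The chloride importer Slc12a2 (NKCC1) changed by -0.65 (SE 0.076) in ID8 (with length and GC trends removed -0.14 and not called) and -2.10 (SE 0.11) in PMJ2R, whereas the potassium-chloride cotransporter Slc12a4 (KCC1) was called higher in both (0.16, SE 0.069, or -0.28 with library totals, and 0.74, SE 0.082). Both were named after their values were seen. Slc24a5 held the highest level per length of the class and rose (0.46, SE 0.079, or 0.024 and not called with library totals, and 0.98, SE 0.07), but Myef2 shares 39.5% of its exon bases on the other strand.

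Of the carriers of amines and osmolytes, the taurine transporter Slc6a6 was the most abundant and fell in both lines, from 476, 444 and 408 CPM to 278, 268 and 303 in ID8 and from 265, 273 and 321 to 123, 131 and 133 in PMJ2R (-0.64, SE 0.077 and -1.09, SE 0.059). The ID8 fall was no longer called with length and GC trends removed (-0.0030). The neighbouring betaine and GABA carriers Slc6a12 and Slc6a13, found in PMJ2R only, fell there by the largest folds of the class: Slc6a12 from 54.4, 51.1 and 52.7 CPM to 6.86, 8.77 and 8.08 (log2 fold change -2.67, SE 0.085, adjusted p = 5.63e-15) and Slc6a13 from 19.7, 16.6 and 16.9 to 2.35, 1.802 and 2.74 (-2.89, SE 0.14). The creatine transporter Slc6a8 and Slc6a20b, named after their values were seen, were called higher in both lines (0.33, SE 0.078 and 0.97, SE 0.15, 0.87, SE 0.079 and 0.94, SE 0.078). The ID8 value of Slc6a8 is -0.11 with library totals, and Sacm1l shares 21.1% of the exon bases of Slc6a20b. Among the 4 carriers of monocarboxylates and dicarboxylates, Slc16a13 fell in both lines (-2.16, SE 0.23 and -2.92, SE 0.20, named after its values were seen), and Slc16a6, which carries ketone bodies, fell in PMJ2R from 59.4, 59.5 and 65.7 CPM to 31.9, 31.8 and 34.9 (-0.84, SE 0.062).

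Among the genes that carry the prefix without being transporters, the scaffold proteins NHERF1 (Slc9a3r1) and NHERF2 (Slc9a3r2) bind sodium-proton exchangers and other membrane proteins. Slc9a3r1 fell from 32.7, 36.3 and 37.6 CPM to 5.46, 5.71 and 6.43 in PMJ2R (log2 fold change -2.54, SE 0.094, adjusted p = 3.89e-14) and from 178, 169.8 and 186 to 132, 136 and 127 in ID8 (-0.43, SE 0.067), and the difference of -2.17 had an edgeR adjusted p = 2.82e-13. Slc9a3r2 rose in ID8 (0.51, SE 0.091, or 0.071 and not called with library totals) and fell in PMJ2R (-1.50, SE 0.48), where it stood below 1 CPM. Slc7a6os rose in both (1.02, SE 0.073 and 0.62, SE 0.054, the latter 0.067 and not called with library totals), Slc4a1ap fell in both (-0.70, SE 0.09 and -0.78, SE 0.063), and so did Slc2a4rg-ps (-0.43, SE 0.16, or -0.067 and not called with length and GC trends removed, and -1.26, SE 0.08). Without these 5 genes, 59 of 160 solute carrier genes were higher and 70 lower in ID8.

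Related genes outside the rule were counted in the same way. Of the carriers of the same superfamily that bear other symbols, 9 were higher and 14 lower among the 29 tested ID8 genes, and 13 and 14 of 29 in PMJ2R. Over all tested genes 38.4% were higher and 42.0% lower in ID8, and 40.1% and 43.6% in PMJ2R. Both subunits of the mitochondrial pyruvate carrier were called higher in both lines: Mpc1 changed by 0.22 and 1.03 and Mpc2 by 1.19 and 0.73, the ID8 value of Mpc1 being -0.22 with library totals and -0.15 with length and GC trends removed. The sideroflexins Sfxn1 to Sfxn5 were called lower in both on the TMM scale. With length and GC trends removed Sfxn2 was called higher in ID8 (0.22), Sfxn1 was called in neither line (-0.12 and -0.066), and Sfxn3 was not called in PMJ2R (0.087). Of the partner proteins and sodium pump subunits that are not themselves among the 173 genes, 6 were higher and 4 lower of 12 in ID8, and 8 and 2 of 11 in PMJ2R. Atp1b1, the abundant beta subunit of ID8, fell there from 863, 834 and 810.2 CPM to 321, 320.2 and 364 (-1.31, SE 0.075) and Atp1b3, that of PMJ2R, rose by 0.39 (SE 0.046), or -0.17 with library totals. Of the 19 solute carrier genes left out by name, 6 were higher and 8 lower of 18 in ID8, and 10 and 8 of 19 in PMJ2R.

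The interaction test asks whether the response to rebastinib differed between the lines. Over all 173 genes 42 had a higher and 69 a lower response in PMJ2R, against a background of 52.4% called (21.8% higher and 30.6% lower), and over the 152 genes tested in both lines the counts were 38 and 68, against 62.7% called (23.7% and 39.0%). Opposite calls in the lines were made for 15 genes higher in ID8 and lower in PMJ2R (9.87%, beside 5.58% of all genes) and for 6 genes lower in ID8 and higher in PMJ2R (3.95%, beside 4.33%). With library totals 4 of the 15 kept both calls (Slc15a3, Slc25a28, Slc25a38 and Slc25a42), and 2 of the 6 did, and with length and GC trends removed 12 of the 15 and 1 of the 6 did. The 6 were Slc20a1, Slc25a30, Slc30a7, Slc35g1, Slc39a9 and Slc4a7. The response of PMJ2R was called lower for 16 and higher for 10 of the 39 mitochondrial carriers, and lower for 4 and higher for 2 of the 6 vitamin carriers. The 39 include Slc25a27 and Slc25a29, which did not pass the PMJ2R filter and for which the test does not compare responses. The 10 genes with the smallest p for this test have their values above: Slc15a3, Slc9a3r1, Slc44a2, Slc5a6, Slc25a28, Slc25a10, Slc20a1, Slc25a42, Slc43a2 and Slc26a2. Of these, Slc20a1 alone had the higher response in PMJ2R.

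**Figure D3:**
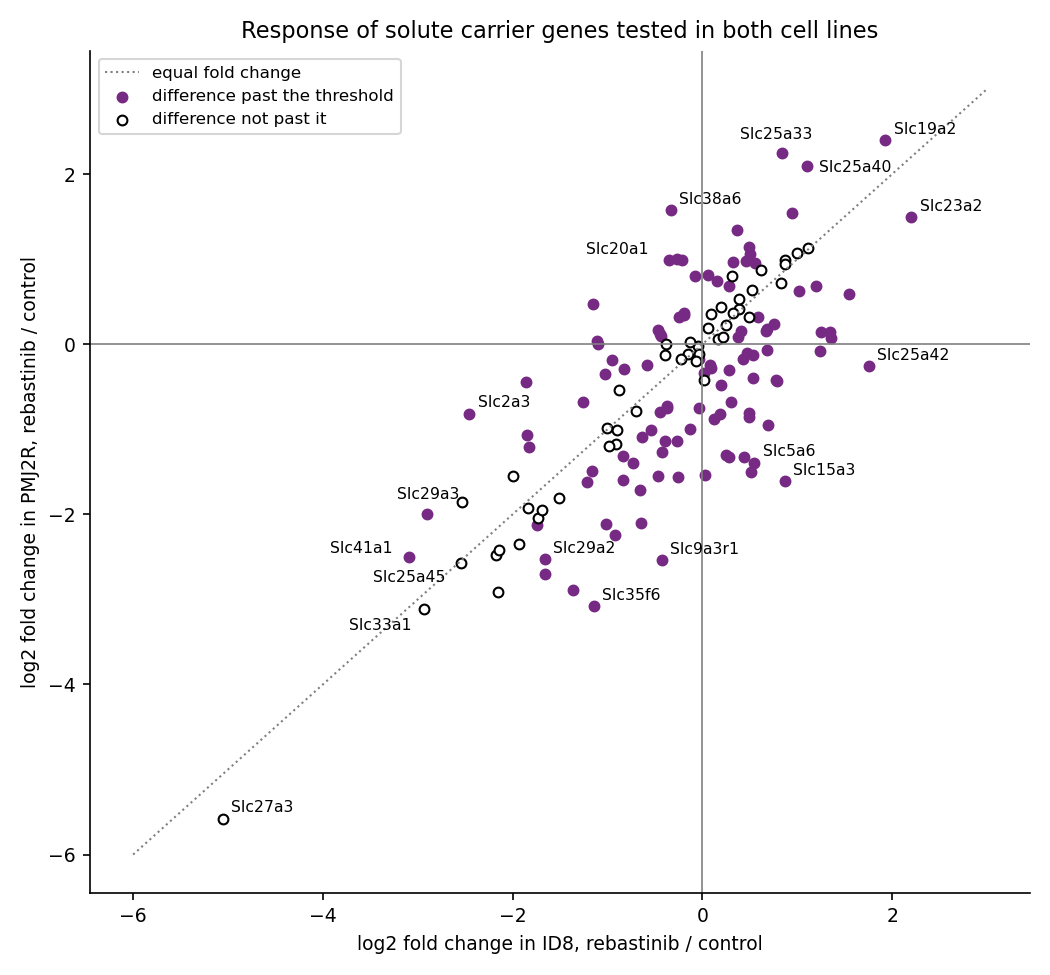
Log2 fold change with rebastinib in ID8 (horizontal) and PMJ2R (vertical) for the 152 solute carrier genes tested in both lines; filled points passed the interaction test at an adjusted p of 0.05, and the dotted line marks equal change. Slc27a3, Slc33a1 and Slc25a45 lie near the line at the lower left, Slc19a2 and Slc23a2 on either side of it at the upper right, and Slc15a3, Slc5a6 and Slc25a42 in the quadrant of opposite change.

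**Figure D4:**
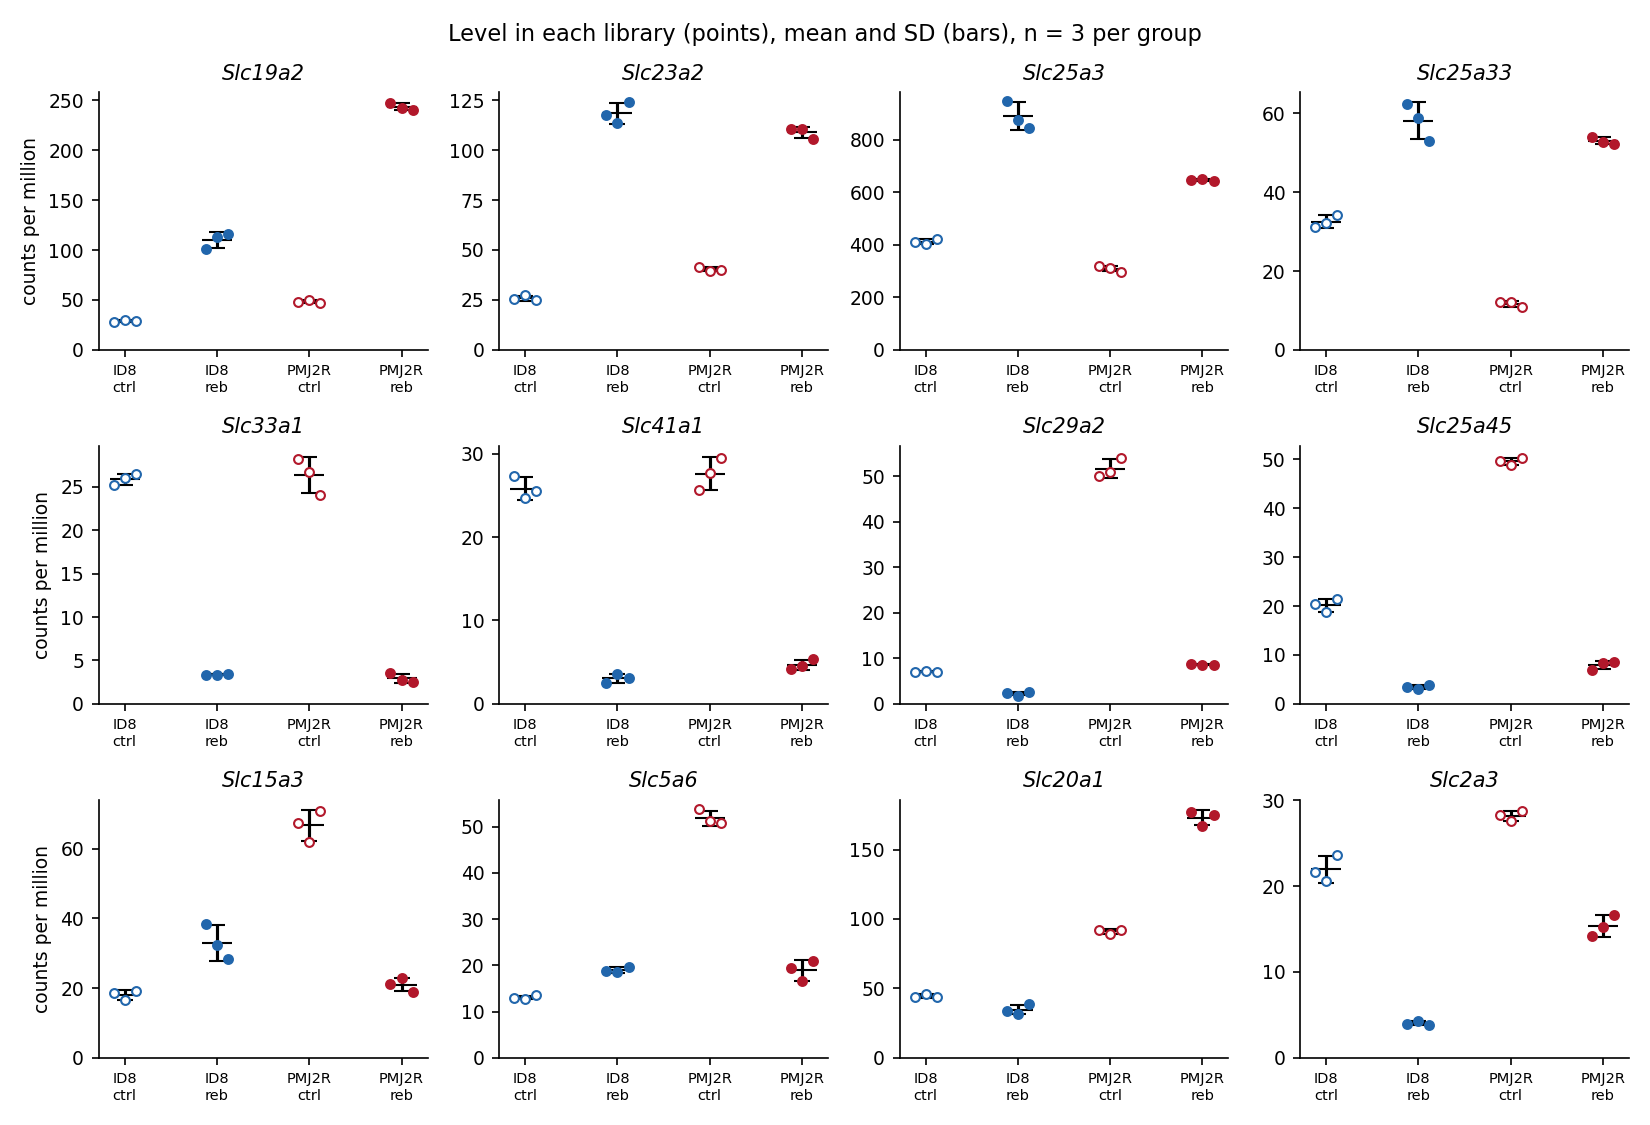
CPM on the TMM scale in each of the 12 libraries for 12 solute carrier genes, with the mean and SD of each group (n = 3); open points are control, filled points rebastinib, blue ID8 and red PMJ2R. In each of the panels the control and treated points of a line do not overlap, and for Slc15a3, Slc5a6 and Slc20a1 the lines move in opposite directions.

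Untreated ID8 and PMJ2R cells differed by at least 2-fold with an adjusted p under 0.05 in 78 of the 173 genes, 39 higher in PMJ2R and 39 higher in ID8; the background was 43.7% called, 18.1% and 25.6%. The split was 64 and 28 with length and GC trends removed, a setting to which these background shares do not apply. Library values of the lines did not overlap for 89.0% of the 173 genes, and for 83.8% of all genes. Some carriers were at or near 0 counts in the control cells of 1 line. The purine nucleobase carrier Slc43a3 held 88.4, 87.1 and 90.4 CPM in ID8 control and 0 counts in PMJ2R control, at least 2580-fold higher when the absent side is put at 3 counts over its group. By the same bound Slc27a6 was at least 1180-fold, Slc35f2 at least 584-fold and the vesicular polyamine transporter Slc18b1 at least 438-fold higher in ID8. The cationic amino acid carrier Slc7a2 had 2397 counts in ID8 control and 1 in PMJ2R control (ratio 2616, 95% counting interval 469 to 103372), and Slc4a3 had 1281 and 1 (ratio 1398, 250.5 to 55263). Slc44a3 had 2046 and 4.

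The other way, Slc16a6 held 59.4, 59.5 and 65.7 CPM in PMJ2R control and 0 counts in ID8 control (at least 1640-fold higher), though Amz2 shares 21.5% of its exon bases. Slc6a12 was at least 1400-fold, the neutral amino acid exchanger Slc7a8 at least 1000-fold, Slc6a13 at least 473-fold and the sodium-proton exchanger Slc9a4 at least 329-fold higher in PMJ2R. Slc2a6 had 3950 counts in PMJ2R control and 2 in ID8 control (ratio 1810, 95% counting interval 500.6 to 14948), and the sodium-coupled dicarboxylate carrier Slc13a3 had 933 and 1 (ratio 855, 153 to 33801). Slc39a4 was low but detected in ID8, at 0.266, 0.378 and 0.5101 CPM on 31 counts, and stood at 22.7, 20.96 and 24.5 in PMJ2R. With rebastinib Slc7a8 rose in PMJ2R (0.39, SE 0.089, -0.17 with library totals) and Slc13a3 changed by -0.033 (SE 0.11), which did not pass the test. Slc16a6, Slc6a12, Slc6a13, Slc9a4 and Slc2a6 fell there, Slc9a4 from 12.8, 11.4 and 12.9 CPM to 3.11, 3.48 and 2.67.

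**Figure D5:**
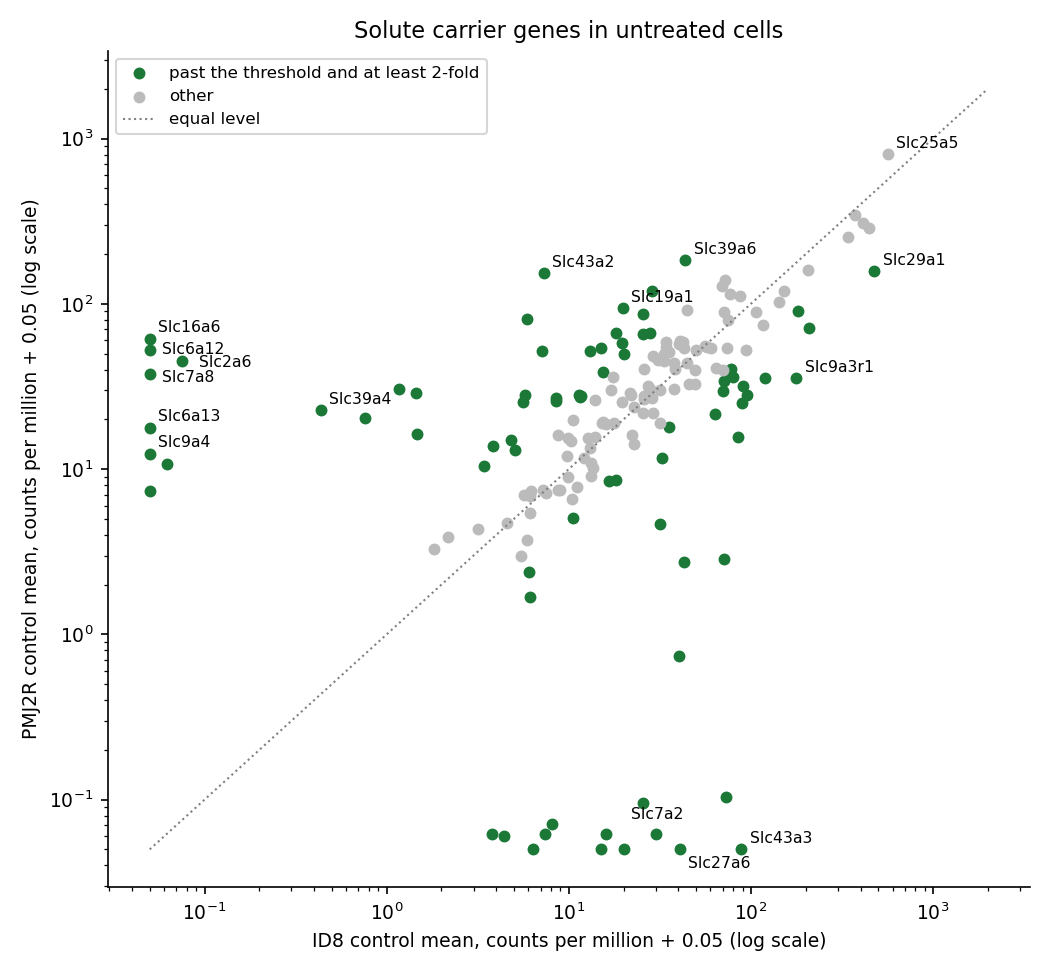
Mean level of the 173 solute carrier genes in untreated ID8 (horizontal) and PMJ2R (vertical) cells, in CPM plus a small constant on log axes; green points differ at least 2-fold with an adjusted p under 0.05, and the dotted line marks equal level. Slc16a6, Slc6a12 and Slc7a8 lie along the left edge, where ID8 held 0 counts, and Slc43a3 and Slc27a6 along the bottom, where PMJ2R did.

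For levels per kilobase, CPM was divided by the length of a gene's merged exons over all its transcripts. On this scale Slc25a5 was the most abundant solute carrier gene in all 4 groups. It stood at 343 CPM per kilobase in ID8 control, 606 with rebastinib, 489 in PMJ2R control and 769.8 with rebastinib. Slc29a1 was at 119 on this scale in ID8 control, against 39.5 in PMJ2R control, and the taurine carrier Slc6a6 stood at 52.4 and 33.8. The highest of the metal carriers by the mean of the groups, Slc39a1, was at 29.7 in ID8 control and 16.9 in PMJ2R control, and the highest of the vitamin carriers, Slc19a2, went from 7.57 to 28.7 in ID8 and from 12.6 to 63.5 in PMJ2R.

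RefSeq promoter windows were found for 134 of the 173 genes, and the 250 bases before the start were searched on both strands for GCGTG (the core bound by the aryl hydrocarbon receptor), CACGTG (E-box), TGACGTCA (the cyclic AMP element), TGACNNNGC (the antioxidant element), the NRF1 site (the last capitals of the Slc33a1 window), CCGGAAG (an ETS core) and CCAAT; no motif contains another. For a solute carrier gene the window nearest its GENCODE start was used. For all genes it was the first listed window of each, with no minimum of counts, so the shares compare unlike sets. GCGTG was in 46.3% of the solute carrier windows and in 28.2% of 27025 windows of all genes, with 42.9% of the 28 genes higher in both lines and 45.9% of the 37 lower in both. CCAAT was in 32.1%, beside 34.5% of all genes, and CACGTG in 11.9%, beside 6.05%. TGACNNNGC was in 15.7% (10.1% of all genes), in 6 of the 28 genes higher in both and in 2 of the 37 lower in both. CCGGAAG was in 13.4% (7.05% of all genes), TGACGTCA in 2 windows (1.49%, beside 1.62%) and the NRF1 site in 1 (0.75%, beside 0.78%). Solute carrier windows had a median GC content of 61.6%, beside 52% over all genes, and a match says only that the letters are there.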

How the data were processed

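Messenger RNA of 2 mouse cell lines was counted in 12 libraries, 3 in each of 4 groups taken from the sample titles. The authors deposited raw counts per gene as whole numbers, 1 table of 55421 Ensembl identifiers. Tools listed in the submitters' processing notes are STAR 2.6.1c, featureCounts, FastQC and DESeq2, with the build GRCm38. The sources used here give no annotation, strand setting or handling of multimapping reads. Symbols, positions, merged exon lengths and transcript lengths came from GENCODE vM21 of that build, and 181 identifiers with 0.00261% of counts had no symbol. Each comparison was fitted over all genes with edgeR 4.0.16 in R 4.3.3 (TMM scaling, default expression filter, robust quasi-likelihood test, Benjamini-Hochberg threshold 0.05): rebastinib against control in the 6 libraries of each line, their interaction over 12 libraries, and control cells with a further 2-fold minimum. CPM values use the TMM factors of the 12-library fit, except those of the cell type markers, which use library totals. SE is the log2 fold change divided by the square root of F. Floors are 3 counts over a group. Scripts were tested on simulated counts. Alternatives were RLE size factors, library totals, DESeq2 1.42.0, no filter, a minimum mean CPM of 5, a block for the replicate number, removal of length and GC trends (splines with 5 degrees of freedom), and each library left out. The chemotherapy arms named in the series' design are not analysed here. Replicates differed by more than counting noise, so none were merged. Whether same-numbered libraries are paired is not known (correlations are given with the block result). The genes, their classes and the lists were chosen with earlier results of these data known. Genes named were, per rebastinib comparison, the 10 higher and 10 lower with the smallest p; for the interaction, the 10 with the smallest p; for control cells, the 8 per direction with the largest fold at 10 or more CPM; in each class the most abundant per kilobase; and 3 on each side of the count minimum. Others were named after their values were seen and are marked so. Results for 4 genes are not reported here.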

Additional observations from a re-analysis of the deposited data

Results flagged for a closer look

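Of the genes named by rule and tested in both lines, 34 had a response that differed between the lines by the edgeR interaction test. Genes named after their values were seen, such as Slc35f6, are not counted. As log2 differences, PMJ2R minus ID8, the lower responses of PMJ2R were Slc15a3 -2.53, Slc9a3r1 -2.17, Slc25a42 -2.07, Slc5a6 -2.0, Slc43a2 -1.82, Slc25a28 -1.70, Slc25a10 -1.66, Slc26a2 -1.62, Slc44a2 -1.61, Slc35e4 -1.34, Slc8b1 -1.26, Slc25a12 -1.11, Slc39a4 -1.01, Slc29a2 -0.93, Slc23a2 -0.77, Slc50a1 -0.71, Slc25a26 -0.57, Slc39a6 -0.54, Slc6a6 -0.51, Slc7a6os -0.45, Slc38a10 -0.32 and Slc4a2 -0.20. The higher responses of PMJ2R were Slc38a6 1.85, Slc2a3 1.58, Slc25a33 1.35, Slc20a1 1.28, Slc25a40 0.94, Slc25a25 0.91, Slc29a3 0.85, Slc44a1 0.69, Slc25a44 0.60, Slc41a1 0.52, Slc24a5 0.46 and Slc19a2 0.41. Over all genes tested in both lines the same test called 62.7%.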

How the results depend on the processing

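The number of solute carrier genes called in each of the 4 comparisons stayed within 1.5 times the reported number under the alternatives run, but the split between higher and lower did not. With library totals 26 genes were higher in ID8 and 24 in PMJ2R. With length and GC trends removed 73 were higher in PMJ2R and 64 in PMJ2R control cells, and with the replicate block added 74 and 63. Median log2 fold changes turned sign with these trends removed, to 0.21 in ID8, 0.0076 in PMJ2R and 0.52 for control cells (0.21, 0.0069 and 0.52 with the block as well), and for control cells to 0.048 with library totals. Leaving out each library in turn gave 55 to 61 higher and 68 to 76 lower genes in ID8, and 47 to 49 and 84 to 91 in PMJ2R. The medians ran from -0.14 to -0.067 in ID8, the latter without rebastinib replicate 2, and from -0.32 to -0.28 in PMJ2R. The ID8 median was -0.078 with RLE factors and with DESeq2, the PMJ2R median was -0.46 without a filter, and with library totals they were -0.55 and -0.86. With the replicate block alone 57 and 70 genes were called in ID8, 48 and 88 in PMJ2R, and 107 in the interaction; the block ended the call of Slc39a1 in ID8 and no other of the 85 named results. Same-numbered libraries had correlations of deviations of -0.16, -0.032 and -0.38 in ID8, and of 0.070, -0.0027 and 0.064 in PMJ2R. With 3 libraries per group these values cannot show or exclude a pairing by number. These 85 count a gene only in the comparison it was named for; sign changes of other values stand beside them in the text. Of the 85, these turned sign. With library totals: Slc39a1 -0.24 and Slc44a1 -0.37 in ID8, and Slc29a1 -0.54, Slc35b1 -0.24, Slc38a10 -0.24 and Slc39a1 -0.12 in PMJ2R. With length and GC trends removed, alone or with the block: Slc29a1 0.055 and 0.056 and Slc4a2 0.53 in ID8, and Slc4a2 0.48 in PMJ2R. Slc4a2 in ID8 was 0.010 with RLE factors and with DESeq2, Slc44a1 in ID8 -0.033 at a mean of 5 CPM, and Slc29a1 in PMJ2R -0.19 without a filter, -0.032 at a mean of 5 CPM, and ran from -0.019 to 0.073 when each library was left out, below 0 without rebastinib replicate 1 (-0.015) and without control replicate 2 of that line (-0.019). The cause was not tested. Genes with under 10 counts in a group, such as Slc27a3 in treated PMJ2R cells, are limited by depth.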
